A study of Ovis aries with 8 samples.

Results

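The genes described here encode the hypoxia-inducible factor (HIF) subunits HIF1A, EPAS1 and ARNT, and CITED2, a nuclear protein that competes with HIF for its coactivators. Messenger RNA was measured in fetal sheep carotid arteries on 8 single-colour Agilent ovine arrays, 1 for each of 8 samples. The 4 hypoxia fetuses came from ewes held at 3801 m, per the labels' protocols from gestation day 30 to day 135, although the titles give 110 days. The 4 normoxia fetuses came from ewes kept at the supplier's ranch at 300 m. Both groups are labelled as 140 days of gestation and as fetal carotid arteries, and no strain, sex or genetic change is given. The members were found by their name in the array annotation: 8 of 15008 probes, 2 for each of the 4 genes. A further 2 probes carry the name EPAS, and their description gives endothelial PAS domain protein 1, the protein that EPAS1 encodes. These 2 probes were kept and are marked as the EPAS entry throughout, which gives 10 probes. No member was named by its description alone.

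HIF is a dimer of an oxygen-regulated alpha subunit, HIF1A or EPAS1 (HIF-2 alpha), and the stable beta subunit ARNT. In oxygenated cells the alpha subunits are hydroxylated, bound by the VHL ubiquitin ligase and degraded, so much of HIF control acts on protein stability and not on messenger RNA. In low oxygen the dimer binds DNA and recruits the coactivators p300 and CBP, while CITED2, itself a HIF target gene, binds the same coactivator domain and limits the response. In blood vessels HIF acts on genes of glycolysis, vessel growth and matrix, and EPAS1 was first described in endothelium. The arrays measure messenger RNA only.

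CITED2 was the only one of the 4 genes with both probes well above background on all 8 arrays. Both of its probes were higher in hypoxia in each of the 4 same-numbered pairs of arrays. So were 1571 of the 11216 probes tested (14.0%), and the labels do not pair the fetuses. The 2 probes averaged 0.97 and 0.83 higher on the log2 scale, about 1.96-fold and 1.78-fold, with overlapping groups. HIF1A, EPAS1 and ARNT lay near background on many arrays, and the 95% intervals of all their differences included 0 in the fit without a block. No member passed the test across all probes. Of 11216 probes tested with limma (a linear model with a variance shared across probes) at a Benjamini-Hochberg adjusted p under 0.05, 0 were called (0%), while 412 had an unadjusted p under 0.05. The smallest adjusted p was 0.998, and every member probe tested lay at or above it. Of the 10 member probes, 9 were tested. Testing required that Agilent's flag for a signal well above background was set on 4 or more arrays.

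The arrays differed in brightness. The 75th percentile of the processed signal, to which each array was scaled, lay between 96.8 and 1228 in hypoxia and between 124 and 1366 in normoxia. The share of probes well above background was 62.9% to 94.8% in hypoxia and 59.4% to 88.4% in normoxia. After scaling, the lowest level on an array among probes well above background ran between -6.80 on hypoxia 4 and -3.69 on hypoxia 1, so dim probes had a different floor on each array. The arrays lay on 3 slides, with hypoxia 1, hypoxia 2, hypoxia 3 and normoxia 1 on slide 1, hypoxia 4 and normoxia 2 on slide 2, and normoxia 3 and normoxia 4 on slide 3. Arrays of the same number deviated together from their group means, with correlations across probes of 0.820, 0.726, 0.584 and 0.434 for numbers 1 to 4. Some arrays of unlike number did so too: hypoxia 4 and normoxia 2, which share slide 2, correlated at 0.801. Of the arrays on slide 1, normoxia 1 correlated at 0.578 with hypoxia 3 and at -0.638 with hypoxia 2.

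The labelled tissue was checked against smooth muscle markers. CNN1, MYLK and MYL6, which encode calponin, myosin light chain kinase and a myosin light chain, were the 3 of 12 smooth muscle markers with a named probe, and each was well above background on all 8 arrays. All 3 had a lower mean in hypoxia. The log2 of their summed levels was 7.66 to 9.78 in hypoxia and 8.72 to 10.2 in normoxia, and hypoxia 1 was the lowest array. Such a sum mostly follows its brightest gene. Of the markers of other cell types, all 6 leukocyte genes tested had a lower mean in hypoxia at the probe that stood for each. For CD4 the log2 fold change was -0.01. The other probes of LYZ and CD14 gave 0.53 and 0.09, and those of CD3E, FCER1G, ITGB2 and CD4 were below 0. Over all probes tested, 48.7% had a higher mean in hypoxia. The log2 of the summed levels of the 6 leukocyte genes was -0.22 to 1.46 in hypoxia and 0.78 to 1.72 in normoxia. Of the 3 adventitial fibroblast genes, the collagen genes COL3A1 and COL1A1 had a higher mean in hypoxia, with log2 fold changes of 1.81 and 0.96. The other COL3A1 probes gave 0.55 and 0.53. DCN, which encodes the matrix proteoglycan decorin, had a lower mean, at -0.15. The log2 of the fibroblast sum was 4.57 to 7.48 in hypoxia and 4.58 to 6.11 in normoxia. It mostly followed DCN, the brightest of the 3. Hypoxia 1 held the highest fibroblast sum, where the other hypoxia arrays had at most 5.13, with a level of 7.45 for DCN. On hypoxia 1 the COL3A1 level of 1.55 was the lowest of the hypoxia arrays. COL1A1 was not well above background there, at -2.65. None of these genes was called, and their part in the values of the HIF genes and CITED2 was not tested. In whole artery, fewer cells of a type and less RNA per cell cannot be told apart.

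**Figure D1:**
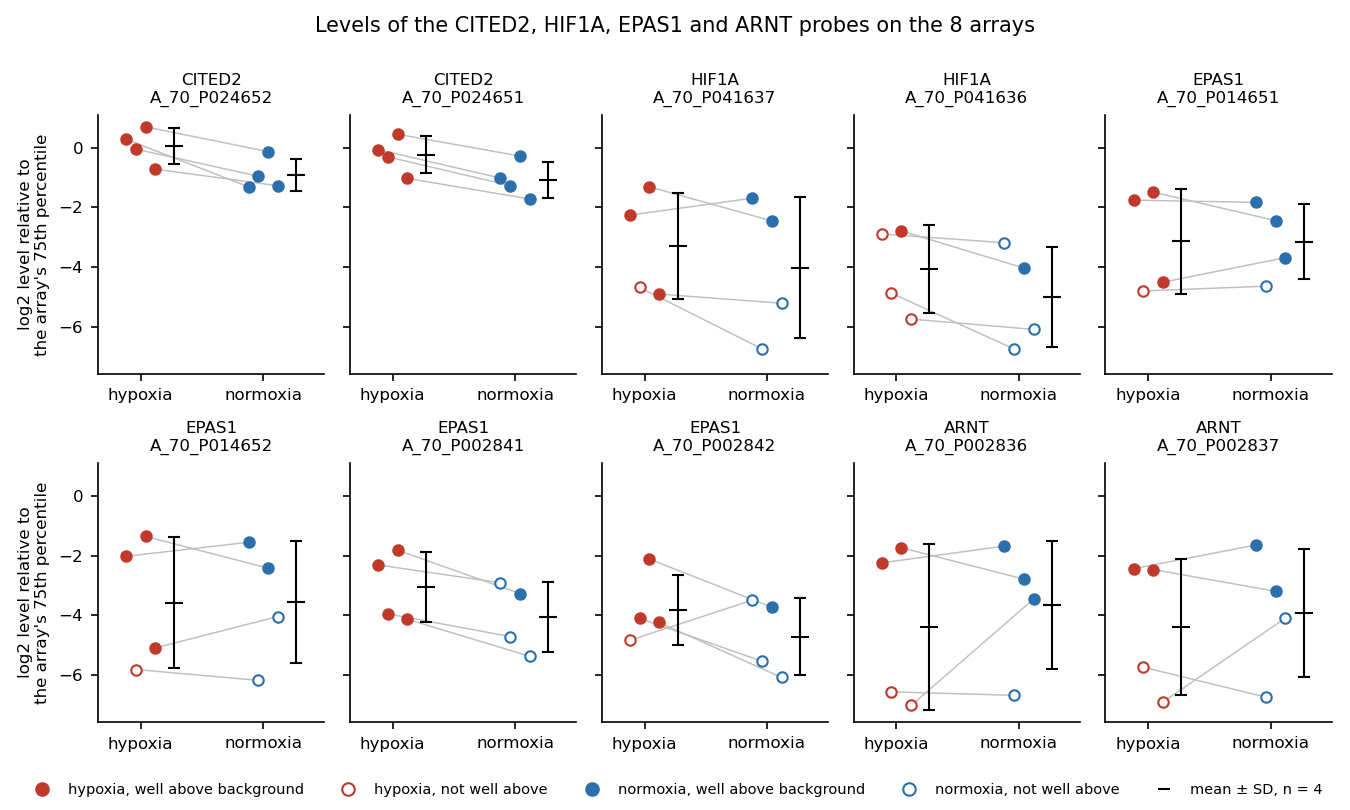
Log2 level of each member probe relative to its array's 75th percentile, with the 4 hypoxia arrays left of the 4 normoxia arrays in each panel, filled points for arrays on which the probe was well above background, grey lines joining same-numbered arrays and black bars for mean ± SD (n = 4 each). Both CITED2 probes are filled on all 8 arrays and fall along every grey line, while the HIF1A, EPAS1 and ARNT probes spread over several log2 units within each group.

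CITED2 binds the coactivator domain that HIF uses and so restrains HIF-driven transcription. On the scale where 0 is an array's 75th percentile, CITED2 probe A_70_P024652 had log2 levels of 0.28, -0.05, 0.70 and -0.72 on hypoxia arrays 1 to 4, against -1.31, -0.96, -0.13 and -1.27 on normoxia arrays 1 to 4. Only 2 arrays crossed between the groups: normoxia 3, the highest of its group, lay above hypoxia 4, the lowest of its group. The means were 0.05 ± 0.60 in hypoxia and -0.92 ± 0.55 in normoxia (SD, n = 4 each).

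The log2 fold change of this probe was 0.97 with a standard error of 0.40 and a 95% interval from 0.04 to 1.90. By limma its unadjusted p was 0.0431 and its adjusted p 0.998. The exact two-sided permutation test over the 70 assignments of the arrays gave p = 0.0571, where the smallest p the design allows is 0.0286. An unadjusted p under 0.05 with a higher level in hypoxia was found for 335 of the 11216 probes (2.99%) and for 1 of the 9 member probes tested. The groups did not overlap for 298 probes (2.66%) and for 0 of the 10 member probes.

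The other CITED2 probe, A_70_P024651, gave the same pattern at a slightly smaller size. Its log2 levels were -0.07, -0.31, 0.45 and -1.03 on hypoxia arrays 1 to 4, against -1.02, -1.27, -0.28 and -1.72 on normoxia arrays 1 to 4. Normoxia 3 lay above hypoxia 2 and hypoxia 4, and normoxia 1 lay just above hypoxia 4. Its log2 fold change was 0.83 with a standard error of 0.42 (95% interval -0.14 to 1.81), with an unadjusted p of 0.0840 and an adjusted p of 0.998 by limma and an exact permutation p of 0.143.

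The within-pair differences of CITED2 were alike between its probes except in pair 1. Probe A_70_P024652 was higher in hypoxia by 1.59, 0.91, 0.83 and 0.56 log2 units in pairs 1 to 4, and A_70_P024651 by 0.95, 0.96, 0.73 and 0.69. Being higher in hypoxia in 4 of 4 pairs was common, at 1571 of 11216 probes (14.0%), and 4 of the 10 member probes did so: both of CITED2, 1 of HIF1A and 1 of the EPAS entry. Probes of 1 gene share a target and are not independent of each other. Hypoxia 1 had the lowest smooth muscle sum and the highest DCN level. Without it, the log2 fold changes of CITED2 were 0.89 for A_70_P024652 and 0.78 for A_70_P024651. Leaving out hypoxia 3 gave 0.76 and 0.60, the lowest values with 1 array left out. The part of tissue content in the CITED2 values was not tested.

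With the replicate number as a block in the limma fit, CITED2 kept its fold changes and its standard errors became 0.24 for A_70_P024652 and 0.19 for A_70_P024651. The unadjusted p was then 0.00864 and 0.00541, and the adjusted p 0.329 and 0.320. An unadjusted p under 0.05 with a higher level in hypoxia was found for 994 of 11216 probes in that fit (8.86%) and for 3 of the 9 member probes tested, the pair for CITED2 and A_70_P002841 of the EPAS entry. A_70_P002841 was well above background on 1 normoxia array only and passed the filter through its hypoxia arrays, so nothing is read from its place in the count. With this block too, 0 probes were called. The labels do not pair the fetuses, so this block and the pair counts rest on a pairing taken from these data.

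The size of the CITED2 difference varied with slide and with background treatment, and its direction did not. Within slide 1, where 3 hypoxia arrays stand against 1 normoxia array, it was 1.62 for A_70_P024652 and 1.04 for A_70_P024651. Within slide 2, with 1 array of each group, it was 0.24 for each of the probes. Slide 3 held no hypoxia array and gave no value. In a fit that included slide as a block, the log2 fold changes were 1.07 (standard error 0.53) and 0.72 (standard error 0.53), again for A_70_P024652 first.

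When the background was corrected by the normexp method in place of Agilent's own subtraction, the log2 fold changes of CITED2 were 0.34 for A_70_P024652 and 0.22 for A_70_P024651. The median over all probes tested was -0.31 under that correction, against -0.02 with Agilent's subtraction. The raw signal of the CITED2 probes was between 1.93 times the local background on normoxia 1 and 25.5 times on hypoxia 3.

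**Figure D2:**
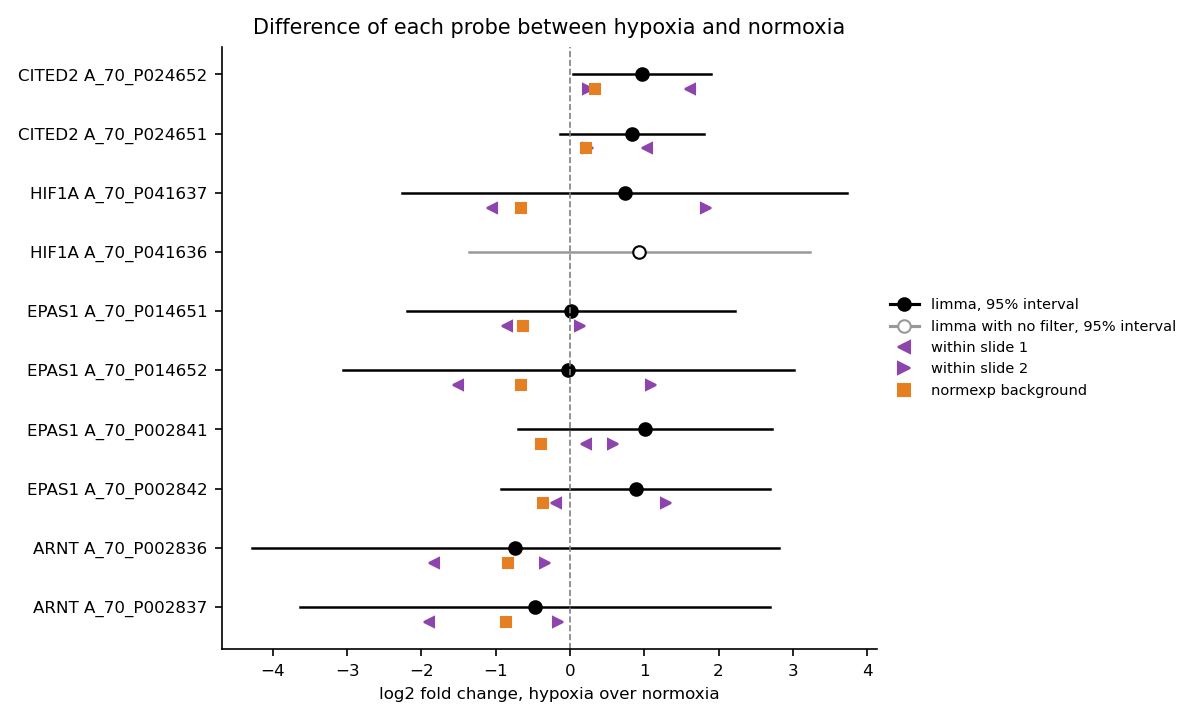
Log2 fold change of each member probe, hypoxia over normoxia, with its 95% interval from limma (the open circle is the HIF1A probe outside the filter, fitted with no filter), and below each line the differences within slide 1 and within slide 2 and the value after normexp background correction. Every marker of CITED2 lies above 0, between 0.22 and 1.62, while HIF1A probe A_70_P041637 and all 4 EPAS1 probes have markers on both sides of 0.

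HIF1A encodes the alpha subunit found in most cell types. Its brighter probe, A_70_P041637, had log2 levels of -2.26, -4.67, -1.31 and -4.90 on hypoxia arrays 1 to 4, against -1.69, -6.73, -2.45 and -5.20 on normoxia arrays 1 to 4. It was well above background on 3 hypoxia arrays (1, 3 and 4) and on 2 normoxia arrays (1 and 3). Levels differed more between array numbers than between groups: the arrays numbered 1 and 3 were high in both groups and those numbered 2 and 4 low in both.

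The log2 fold change of A_70_P041637 was 0.73 with a standard error of 1.30 and a 95% interval from -2.26 to 3.73. By limma the unadjusted p was 0.587, and the exact permutation p was 0.60. With the replicate number as a block the standard error was 0.45 and the 95% interval -0.40 to 1.87 (unadjusted p 0.162 and adjusted p 0.540 by limma), so a difference in HIF1A was not detected in either fit. Within slide 1 the difference was -1.06 and within slide 2 it was 1.83, so its direction was not the same on both slides. Without normoxia 2, where the probe was at its lowest, the log2 fold change was -0.17.

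The other HIF1A probe, A_70_P041636, was well above background only on hypoxia 3 and normoxia 3, and was not in the main test. Its log2 levels were -2.88, -4.87, -2.78 and -5.73 on hypoxia arrays 1 to 4, against -3.18, -6.73, -4.02 and -6.07 on normoxia arrays 1 to 4. Each hypoxia level was above the normoxia level of the same number, mostly between spots not told apart from background. Fitted with no filter, the difference was 0.94 with a 95% interval from -1.36 to 3.23 and an unadjusted p of 0.375 by limma. The raw signal of the HIF1A probes was at most 7.43 times the local background, on hypoxia 3, and as low as 1.29 times on normoxia 2.

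EPAS1 encodes HIF-2 alpha, the alpha subunit abundant in endothelium, and is covered by 4 probes from 2 annotation entries. The 2 probes that the files name EPAS1 had nearly equal group means, with wide errors. Probe A_70_P014651 had log2 levels of -1.75, -4.79, -1.49 and -4.50 on hypoxia arrays 1 to 4, against -1.83, -4.63, -2.44 and -3.67 on normoxia arrays 1 to 4. The groups covered nearly the same range. Its log2 fold change was 0.01 with a standard error of 0.96 (95% interval -2.20 to 2.22), and 3 hypoxia and 3 normoxia arrays had it well above background.

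Probe A_70_P014652 of the same entry had log2 levels of -2.02, -5.81, -1.36 and -5.08 on hypoxia arrays 1 to 4, against -1.55, -6.17, -2.42 and -4.03 on normoxia arrays 1 to 4. Its log2 fold change was -0.02 with a standard error of 1.32 (95% interval -3.06 to 3.01). As with HIF1A, the arrays numbered 1 and 3 stood above those numbered 2 and 4 in both groups. With the replicate number as a block, the 95% intervals were -0.81 to 0.83 for A_70_P014651 and -0.996 to 0.947 for A_70_P014652.

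The EPAS entry gave higher means in hypoxia. Its probe A_70_P002841 had log2 levels of -2.31, -3.94, -1.82 and -4.13 on hypoxia arrays 1 to 4, against -2.91, -4.71, -3.27 and -5.36 on normoxia arrays 1 to 4. It was well above background on all 4 hypoxia arrays and on 1 normoxia array, normoxia 3, and was higher in hypoxia in 4 of 4 pairs. The log2 fold change was 1.01 with a standard error of 0.74 (95% interval -0.70 to 2.72), with an unadjusted p of 0.209 and an adjusted p of 0.998 by limma, and the groups overlapped.

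Its partner probe A_70_P002842 had log2 levels of -4.83, -4.10, -2.11 and -4.23 on hypoxia arrays 1 to 4, against -3.49, -5.53, -3.73 and -6.07 on normoxia arrays 1 to 4. Hypoxia 1, on which the probe was not well above background, was the lowest of its group and lay below normoxia 1. It was well above background on 3 hypoxia arrays and on 1 normoxia array. The log2 fold change was 0.89 with a standard error of 0.78 (95% interval -0.93 to 2.70) and an unadjusted p of 0.292 by limma. With the replicate number as a block, the unadjusted p was 0.00599 for A_70_P002841 and 0.184 for A_70_P002842, and the adjusted p was 0.321 and 0.559. Both EPAS probes passed the filter through their hypoxia arrays, and for each of them 3 of the 4 normoxia values are spots not well above background, so these fold changes and p-values describe the spots and support no difference.

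The entries for EPAS1 were not shown to differ in their response. The mean of the EPAS probes minus the mean of the EPAS1 probes, taken within each array, was -0.08 ± 1.30 in hypoxia and -1.04 ± 0.94 in normoxia (SD, n = 4 each). This difference of 0.96 log2 units had an exact two-sided permutation p of 0.257, in a comparison chosen after the values were seen. With normexp correction both entries were lower in hypoxia, at -0.63 and -0.66 for the EPAS1 probes and -0.40 and -0.36 for the EPAS probes, where the median of all probes was -0.31.

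Named endothelial markers were measured beside EPAS1. Of 11 endothelial marker genes, 5 had a probe and 4 were tested, of which TIE1, NOS3 and KDR had a higher mean in hypoxia, FLT1 a lower one, and 0 were called. TIE1 was well above background on 3 hypoxia arrays and 1 normoxia array. It passed the filter through hypoxia, so nothing is read from its higher mean or its place in the count. The log2 fold changes of the others were 1.13 for NOS3, 0.81 for KDR and -0.91 for FLT1. The other KDR probes gave -0.59, 0.35 and 1.32. The log2 of the 4 genes' summed levels, TIE1 included, was -0.87 to 1.13 in hypoxia and -1.46 to 0.53 in normoxia. TEK, the fifth gene, did not pass the filter. The part of endothelial content in the EPAS1 values was not tested.

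ARNT encodes the beta subunit shared by both alpha subunits. Its probe A_70_P002836 had log2 levels of -2.24, -6.55, -1.73 and -7.01 on hypoxia arrays 1 to 4, against -1.68, -6.67, -2.78 and -3.45 on normoxia arrays 1 to 4. The lower hypoxia mean comes with hypoxia 4, whose level was 3.55 log2 units under that of normoxia 4, on an array where the probe was not well above background. The log2 fold change was -0.74 with a standard error of 1.54 (95% interval -4.29 to 2.81) and an unadjusted p of 0.645 by limma. Without hypoxia 4 it was 0.14.

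Probe A_70_P002837 of ARNT had log2 levels of -2.44, -5.73, -2.47 and -6.89 on hypoxia arrays 1 to 4, against -1.64, -6.73, -3.19 and -4.09 on normoxia arrays 1 to 4. It was well above background on the arrays numbered 1 and 3 of both groups and on no other. Its log2 fold change was -0.47 with a standard error of 1.37 (95% interval -3.63 to 2.69), and 0.37 without hypoxia 4. Both ARNT probes were higher in hypoxia in pairs 2 and 3 and lower in pairs 1 and 4. Blocking on the replicate number gave 95% intervals of -2.64 to 1.17 for A_70_P002836 and -2.16 to 1.22 for A_70_P002837.

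Pair 3 joined the brightest array of each group, and it was the only pair in which all 10 member probes were well above background on both arrays. All 10 probes were higher on hypoxia 3 than on normoxia 3, by 0.73 to 1.62 log2 units with a median of 1.05. Over all probes tested, 57.5% were higher on hypoxia 3 and the median difference was 0.14. These are 1 array of each group, on slides 1 and 3, so the comparison has no replicate. The 10 probes cover 4 genes and are not independent. The median processed signal was 0.308 of the 75th percentile on hypoxia 3 and 0.228 on normoxia 3. Its part in the values of these mostly dim probes was not tested. In the other pairs the members were higher in hypoxia for 5, 9 and 6 of 10 probes in pairs 1, 2 and 4, with 7, 2 and 3 probes well above background on both arrays. Over all probes tested, 52.5%, 51.8% and 45.4% were higher in hypoxia in those pairs.

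**Figure D3:**
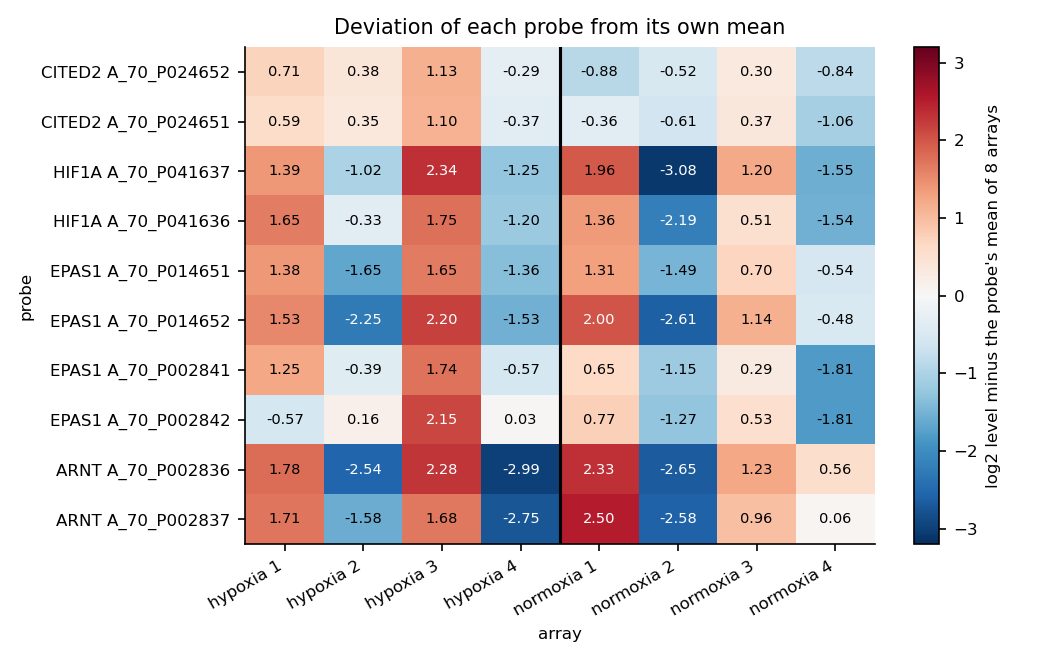
Log2 level of each member probe minus that probe's mean over the 8 arrays, with hypoxia arrays left of the black line and normoxia arrays right of it. The HIF1A, ARNT and EPAS1 rows are red for arrays numbered 1 and 3 in both groups, except A_70_P002842 on hypoxia 1, while the CITED2 rows are paler and are redder on the hypoxia side.

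The members differed in how they varied across arrays. For 7 of the 10 probes, both of HIF1A, both of ARNT, both of the EPAS1 entry and A_70_P002841, every array numbered 1 or 3 was above every array numbered 2 or 4. This split by number, noticed in the data, held for 2838 of the 11216 probes tested (25.3%). The median processed signal, as a ratio to the 75th percentile in the authors' table, was 0.326 and 0.308 on hypoxia 1 and hypoxia 3 and 0.328 and 0.228 on normoxia 1 and normoxia 3, against 0.158 and 0.141 on hypoxia 2 and hypoxia 4 and 0.132 and 0.137 on normoxia 2 and normoxia 4. The part of this array property in the members' values was not tested.

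Likeness was measured as the mean absolute difference of log2 levels over the 8 arrays after each probe was centred on its own mean. The CITED2 probes were the most alike at 0.147, the ARNT probes differed by 0.361, the HIF1A probes by 0.471, the EPAS1 probes by 0.472 and the EPAS probes by 0.484. Between genes, ARNT and CITED2 were the farthest apart at 1.57 to 1.94, and HIF1A and EPAS1 lay at 0.418 to 1.07. All of these values share the same 8 arrays and their scaling, and no test was made on them.

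Among 812 named probes of 523 genes, those nearest to CITED2 probe A_70_P024652 were for SMO, the Hedgehog signal transducer, at 0.190, MMP2, a matrix metalloproteinase, at 0.213, and PSMD4, a proteasome subunit, at 0.238. The median over these 812 probes was 0.838. The log2 fold changes of the 3 genes were 0.79 (standard error 0.38) for SMO, 0.84 (0.51) for MMP2 and 0.71 (0.31) for PSMD4. Each had an adjusted p of 0.998 by limma. The 3 genes were chosen for likeness to CITED2 over these same 8 arrays. Fold changes near that of CITED2 follow from this choice and are no separate result. SMO was well above background on 3 hypoxia and 2 normoxia arrays only.

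The nearest to EPAS1 probe A_70_P014651 were EPOR, the erythropoietin receptor, at 0.121, SLC6A4, the serotonin transporter, at 0.196 and PTX3, a pentraxin, at 0.246, where the median was 1.11. For HIF1A they were ERBB2, a receptor tyrosine kinase, at 0.351, IFNG, interferon gamma, at 0.402 and PRNP, the prion protein, at 0.446, where the median was 1.45. For ARNT they were ACTB, which encodes an actin, at 0.214, CXCL10, a chemokine, at 0.243 and LGALS15, a galectin, at 0.261, where the median was 1.87. Of these 9 genes, only PTX3 was well above background on all 8 arrays, so their likeness is mostly between dim probes.

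The other genes of HIF control were sparsely covered. Of 23 genes listed as HIF regulators or dimer partners, 6 had a named probe and 4 were tested. Of these 4, HSP90AA1, HIF3A and RACK1 had log2 fold changes above 0, BMAL1 was below 0, and 0 passed the test. Their median log2 fold change was 0.38, against -0.02 over all probes tested. The remaining 17 genes, among them the prolyl hydroxylases and VHL, were not analysed here for want of a named probe, and ARNT2 and AHR did not pass the filter.

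HSP90AA1, a chaperone that stabilises HIF1A, had log2 means of 2.35 ± 0.52 in hypoxia and 1.60 ± 0.53 in normoxia (SD, n = 4 each). The log2 fold change was 0.74 with a standard error of 0.38 and an unadjusted p of 0.0846 by limma, and hypoxia 2 stood apart at 1.58 where the other hypoxia arrays had 2.53 to 2.69. With array weights in the fit the log2 fold change was 0.16. HIF3A, a further alpha subunit with forms that oppose HIF, had a log2 fold change of 0.44 with a standard error of 0.36. It was well above background on 3 hypoxia and 2 normoxia arrays, and its other probe gave 0.54.

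Among coactivators and partners of CITED2, 9 of 21 listed genes had a probe and all 9 were tested. Of these, 4 had a mean above 0 and 5 below it, 0 passed the test, and the median log2 fold change was -0.28. SMAD4, the common mediator of TGF-beta signalling, had a log2 fold change of 0.55 with a standard error of 0.42 and was higher in hypoxia in 4 of 4 pairs, as were 14.0% of all probes. Without normoxia 4 it was 0.29, and with normexp correction it was -0.0034. TFAP2A, a transcription factor for which CITED2 is a coactivator, had -0.32 with a standard error of 0.30. The coactivators EP300 and CREBBP had no named probe.

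**Figure D4:**
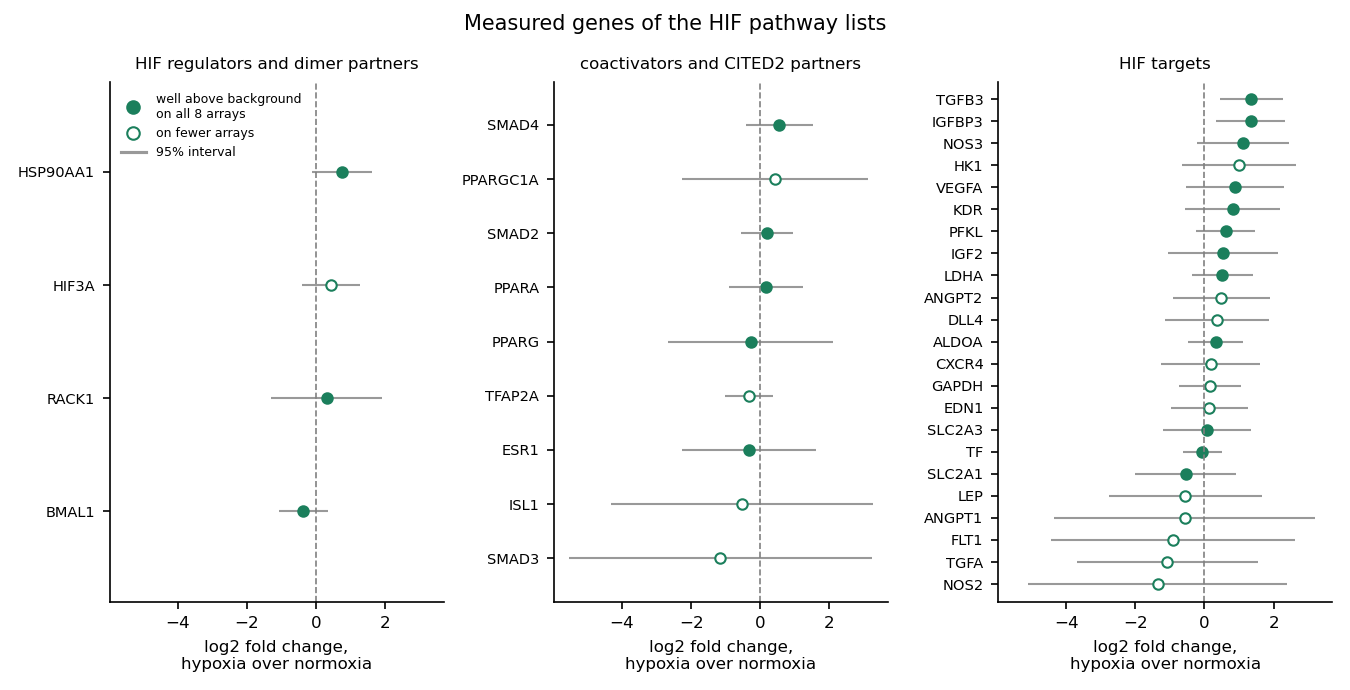
Log2 fold change, hypoxia over normoxia, of the tested genes in the lists of HIF regulators and dimer partners, coactivators and CITED2 partners, and HIF targets, with 95% limma intervals and open circles for genes not well above background on every array. Among the 23 HIF targets 16 points lie above 0, and the widest intervals belong to open circles.

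Genes known as HIF targets were read as a list beside the factors. Of 64 listed genes, 26 had a probe and 23 were tested, of which 16 had a mean above 0 in hypoxia over normoxia and 7 below it, and 0 were called. The 16 include DLL4, well above background on 3 hypoxia arrays and 1 normoxia array, and HK1, on 4 and 2. The 7 include TGFA, on 1 and 3. The median log2 fold change was 0.32, against -0.02 over all probes tested, of which 48.7% were above 0. With normexp correction 8 of the 23 were above 0, and the list's median was -0.33 against -0.31 over all probes. With slide as a block 13 were above 0, and the list's median was 0.06 against -0.10.

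TGFB3, a transforming growth factor beta ligand, was the HIF target with the smallest p. It was the only gene of these 3 lists whose groups did not overlap, as was found for 2.66% of all probes tested. Its log2 means were 0.66 ± 0.37 in hypoxia and -0.70 ± 0.69 in normoxia (SD, n = 4 each), and its log2 fold change of 1.36 had a standard error of 0.39 and an unadjusted p of 0.00890 by limma. IGFBP3, an insulin-like growth factor carrier, followed at 1.34 with a standard error of 0.43 and an unadjusted p of 0.0151 by limma. Both had an adjusted p of 0.998, and their other probes gave 1.43 for TGFB3 and 1.37 for IGFBP3. Within slide 1 the difference of IGFBP3 was 0.06, and with slide blocked its log2 fold change was 0.76 with an unadjusted p of 0.165 by limma. With normexp correction the log2 fold change of TGFB3 was 0.77.

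Within the target list, 7 genes serve glucose uptake and glycolysis, and 6 of them had a log2 fold change above 0. The values were 1.00 (standard error 0.71) for the hexokinase HK1, 0.62 (0.37) for the phosphofructokinase PFKL, 0.51 (0.38) for the lactate dehydrogenase LDHA and 0.32 (0.35) for the aldolase ALDOA. GAPDH had 0.16 (0.39), and the glucose transporters SLC2A3 and SLC2A1 had 0.08 (0.55) and -0.54 (0.63), where the other SLC2A1 probe gave 0.12. HK1 was well above background on 4 hypoxia arrays and 2 normoxia arrays. Its hypoxia arrays alone met the filter, so nothing is read from its place in the count. GAPDH was well above background on 3 hypoxia and 2 normoxia arrays, and its other probe gave 0.88. Over all probes tested, 48.7% had a log2 fold change above 0. The role groups were formed with values seen, and none of their genes passed the test.

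Of 7 target genes for vessel growth and tone signals of endothelium, 5 had a log2 fold change above 0. The share above 0 over all probes tested was 48.7%. EDN1, which encodes endothelin, is also in the target list but outside this group, at 0.14 (standard error 0.48). The growth factor VEGFA had 0.89 (standard error 0.61) and its receptors KDR and FLT1 had 0.81 (0.60) and -0.91 (1.53). The nitric oxide synthase NOS3 had 1.13 (0.58), the Notch ligand DLL4 0.36 (0.65), and the angiopoietins ANGPT2 and ANGPT1 had 0.49 (0.60) and -0.57 (1.63). DLL4 was well above background on 3 hypoxia arrays and 1 normoxia array. It passed the filter through hypoxia, so nothing is read from its place in the count. Probes of a gene disagreed here: the other KDR probes gave -0.59, 0.35 and 1.32, and the other 4 FLT1 probes lay between -0.21 and -0.01, none of them well above background on more than 3 arrays.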

How the data were processed

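Cy3-labelled RNA of each sample was hybridised to an ovine array of design 019921. The deposited intensity values were extracted and background-subtracted by the authors, per the file headers, in Agilent's Feature Extraction software (version 9.5.3.1, protocol GE1-v5_95_Feb07). The authors' deposited series table gives a linear ratio that matched each array's processed intensity divided by the 75th percentile, cut off at 0.01. The authors' reason for that scale is not given in the sources used here, and the table served as an alternative.

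Here 536 control spots per array were dropped, so 15208 spots (15008 probes) remained. Spots marked as outliers were then left out array by array, and 72 probes with no value on some array were dropped. Spots of a probe were averaged as log2 of the processed intensity minus that of the array's 75th percentile. Probes that the flag put well above background on 4 arrays or more (11216) were compared with limma 3.58.1 (lmFit and eBayes, R 4.3.3, data.table version 1.17.8), adjusted by Benjamini-Hochberg at 0.05. Exact permutation used all 70 assignments of arrays. Array signal over background and the number of arrays limit the precision, and p-values measure only the spread between these samples. Gene names came from the files and RefSeq names of assembly ARS-UI_Ramb_v3.0. A probe carried a name in 1173 of 15008 cases. No sequence of the probes or genes is printed.

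Named were every member probe, the 2 genes of each list with the smallest unadjusted p, any list gene whose groups did not overlap, and the 3 named genes most like each member. A gene's probe with the highest mean stood for it. A listed gene is not reported here and was left out of its list's counts. Markers of smooth muscle, endothelium, adventitial fibroblasts, leukocytes, erythroid cells, adipocytes and skeletal muscle gave 0 called genes. The members, lists and tests were chosen with earlier results of these data known. Replicate numbers come from the titles, and the labels give no pairing of the fetuses. Same-numbered samples were paired by the rule that every same-numbered correlation of deviations exceeds 0.1 (lowest 0.434, number 4). That rule was applied to these same data. Alternatives were the replicate block, slide, background, scaling, filter, array weights, probe choice, the authors' ratio and each array left out.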

Additional observations from a re-analysis of the deposited data

Results flagged for a closer look

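HSP90AA1 (A_70_P014626) on hypoxia 2 stood apart from the other hypoxia arrays, with a log2 level of 1.58 where they had 2.53 to 2.69. The gap was 0.853 of the group's range, above Dixon's critical value for 4 samples. Of 32 groups examined 1 stood out in this way, and chance flags about 5% of groups.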

How the results depend on the processing

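The count of called probes was 0 under all 19 alternatives. Both CITED2 probes stayed above 0 throughout, with A_70_P024652 at 1.62 within slide 1 and 0.24 within slide 2, and ranges with 1 array left out of 0.76 to 1.23 for A_70_P024652 and 0.60 to 1.10 for A_70_P024651. With the replicate block no call changed: CITED2 A_70_P024652 stayed at 0.97 and the unadjusted count was 1336 against 412. It was 24 with normexp correction, 135 when arrays were scaled to their median (which moved the median of all probes to -0.20) and 196 in the fit with slide blocked. HIF1A A_70_P041637 turned to -0.66 with normexp, -1.06 within slide 1 and -0.17 without normoxia 2 (range with 1 array left out -0.17 to 1.51). EPAS1 A_70_P014651 turned to -0.46 with slide as a block, -0.63 with normexp, -0.17 with median scaling (a shift shared by all probes), -0.16 with cyclic loess, -0.39 with array weights and -0.85 within slide 1 (range -0.54 to 0.56). A_70_P014652 turned to 1.09 within slide 2 (range -0.90 to 0.72), A_70_P002841 to -0.40 and A_70_P002842 to -0.36 with normexp, and A_70_P002842 to -0.19 within slide 1. With 1 array left out, A_70_P002841 ran from 0.58 to 1.40, A_70_P002842 from 0.32 to 1.29, ARNT A_70_P002836 from -1.74 to 0.14 and A_70_P002837 from -1.41 to 0.37. HIF3A turned to -0.59 and SMAD4 to -0.0034 with normexp. The cause of these changes was not tested. Genes above 0 with 1 array left out numbered 2 to 3 of the 4 HIF regulators, 2 to 7 of the 9 CITED2 partners and 13 to 18 of the 23 HIF targets. No HIF subunit probe was well above background on all 8 arrays, and their standard errors were 0.74 to 1.54, or 0.23 to 0.76 with the replicate block. With 1 array left out, HIF3A ran from 0.24 to 0.73, SMAD4 from 0.29 to 0.79 and TFAP2A from -0.47 to -0.12.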
